A study of Rattus norvegicus with 21 samples.

Results

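The 10 genes described here are encoded on the rat mitochondrial genome and specify subunits of the respiratory chain. They were taken by Ensembl ID and not by any measured value, although earlier results of these data were known when they were chosen. All 10 are among the 30560 IDs of each of the 2 deposited count tables. NADH dehydrogenase, complex I, is represented by Mt-nd1 (ENSRNOG00000030644), Mt-nd2 (ENSRNOG00000031033), Mt-nd4 (ENSRNOG00000029707), Mt-nd5 (ENSRNOG00000029971) and Mt-nd6 (ENSRNOG00000029042). Complex III is represented by cytochrome b, Mt-cyb (ENSRNOG00000031766). Cytochrome c oxidase, complex IV, is represented by its catalytic core subunits Mt-co1 (ENSRNOG00000034234), Mt-co2 (ENSRNOG00000030371) and Mt-co3 (ENSRNOG00000030700), and ATP synthase by Mt-atp6 (ENSRNOG00000031979). The symbols are those given with the list of IDs, and other mitochondrially encoded genes were not identified among the IDs.

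Mitochondrial DNA is a small circle present in many copies per cell, and each of its strands is transcribed as a long precursor that is then cut into the individual RNAs. The 9 genes other than Mt-nd6 are transcribed from the heavy strand, whereas Mt-nd6 is the protein-coding gene of the light strand, so its RNA comes from a different precursor. Because members of one precursor start out together, differences in their relative levels are commonly ascribed to RNA processing and stability. Heart muscle depends on oxidative phosphorylation, and its RNA is rich in these transcripts.

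The cells were ventricular heart muscle cells taken from newborn rats into primary culture (neonatal rat ventricular myocytes), with the transcription factor KLF2 lowered or raised. The design asks how a change in KLF2 alters RNA levels in resting cells and in cells driven to hypertrophy by phenylephrine (PE), an α1-adrenergic agonist. RNA was sequenced from 20 libraries in 8 groups, and a further library held CUT&Tag, which cuts and tags chromatin at sites bound by a protein, from KLF2-overexpressing myocytes.

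In the knockdown experiment, siKlf2-PE cells received small interfering RNA against Klf2 and then PE, and siNeg-PE cells received a negative control RNA and then PE. The siKlf2 and siNeg cells received the same RNAs without PE. Each of these 4 groups had 2 libraries, and the RNA was given 12 h before the 36 h of PE at 100 µM. In the overexpression experiment, Ad-Klf2-PE and Ad-GFP-PE cells, labelled with 36 h of PE at 100 µM, received PE 12 h before an adenovirus carrying Klf2 or green fluorescent protein, which was left for 24 h, and Ad-Klf2 and Ad-GFP cells received the viruses without PE. Each of these 4 groups had 3 libraries. All myocytes of the overexpression experiment therefore carried an adenovirus, and all of the knockdown experiment a small interfering RNA. The treatment label names PE for every RNA library, and the groups without PE are those labelled 0 hour. The promoter of the viral Klf2 is not given, nor is whether libraries of a group came from separate preparations of cells, so p-values reflect the spread among these libraries alone, possibly a technical one.

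Libraries of the knockdown table held 181101876 to 224082309 counts in all, and overexpression libraries held 32693762 to 76138723. The 10 members together held 20720636 to 28879428 counts per knockdown library and 2382293 to 5932903 per overexpression library, and Mt-co1 had the highest count of any ID in all 20 libraries. Levels are in CPM, counts brought to a common library size with the trimmed mean of M values (TMM), and they compare 1 gene across libraries, not genes with each other, since gene length was not used. Scaling by library totals alone moved every log2 fold change by -0.20 in siKlf2 against siNeg, -0.26 in siKlf2-PE against siNeg-PE, -0.10 in siNeg-PE against siNeg and -0.17 in siKlf2-PE against siKlf2. The same shift was -0.04 in Ad-Klf2 against Ad-GFP, -0.10 in Ad-Klf2-PE against Ad-GFP-PE, -0.14 in Ad-GFP-PE against Ad-GFP and -0.20 in Ad-Klf2-PE against Ad-Klf2. The 3 Ad-GFP libraries stood apart from the other 9 in rarely detected genes, with 539 to 776 genes at 1 to 5 counts against 1728 to 2022, and the part of this in the comparisons with Ad-GFP was not tested. Cell type markers and Klf2 itself were not checked, because no ID of the tables matched a symbol in the reference used here. In such bulk samples, fewer myocytes and less mitochondrial RNA per myocyte cannot be told apart.

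Mitochondrial mRNAs took a smaller share of all counts in every PE group than in its untreated counterpart, whereas with TMM scaling their median log2 fold change was below 0 in 2 of the 4 pairs. That median was 0.04 in siNeg-PE against siNeg, -0.08 in siKlf2-PE against siKlf2, 0.0013 in Ad-GFP-PE against Ad-GFP and -0.16 in Ad-Klf2-PE against Ad-Klf2. In siNeg-PE libraries they held 10.6% and 11.9% of all counts, against 13.4% and 12.9% in siNeg. In siKlf2-PE libraries they held 11.02% and 11.1%, against 12.9% and 14.0% in siKlf2. No PE library of the knockdown table overlapped an untreated one, and the differences were -1.92 percentage points for siNeg-PE against siNeg and -2.40 for siKlf2-PE against siKlf2. Both had an exact two-sided permutation p of 0.333, the smallest that 2 libraries against 2 allow.

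The overexpression table had the same order. In Ad-GFP-PE libraries the members held 7.84%, 7.96% and 8.96% of all counts, against 9.94%, 9.73% and 10.1% in Ad-GFP. In Ad-Klf2-PE libraries they held 6.58%, 7.14% and 6.57%, against 9.17%, 9.93% and 7.29% in Ad-Klf2. The groups of each pair did not overlap, although the lowest Ad-Klf2 library, replicate 3, lay next to the highest Ad-Klf2-PE library, replicate 2. The differences were -1.67 percentage points for Ad-GFP-PE against Ad-GFP and -2.03 for Ad-Klf2-PE against Ad-Klf2, each with an exact permutation p of 0.1, the smallest that 3 against 3 allow, and 0.267 after adjustment over the 8 pairs compared.

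Between KLF2 levels, the share lay outside the range of its control in 1 of the 4 pairs. The share averaged 6.76% in Ad-Klf2-PE against 8.25% in Ad-GFP-PE, with no overlap, a difference of -1.49 percentage points (exact permutation p = 0.1, adjusted 0.267). Without PE it averaged 8.80% in Ad-Klf2 and 9.92% in Ad-GFP, with overlap (difference -1.12, exact permutation p = 0.2). The Ad-Klf2 mean was drawn down by replicate 3, at 7.29%, beside 9.17% and 9.93% in replicates 1 and 2. For siKlf2 against siNeg the difference was 0.33 percentage points (exact permutation p = 0.667), and without siKlf2 replicate 2 it was -0.20. For siKlf2-PE against siNeg-PE it was -0.15 (exact permutation p = 1), and without siNeg-PE replicate 2 it was 0.50, so neither direction is settled by these libraries. The widest 95% Wilson interval of a library's share reached 0.0092 percentage points to either side, which covers counting error only and is small beside the spread between replicates.

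**Figure D1:**
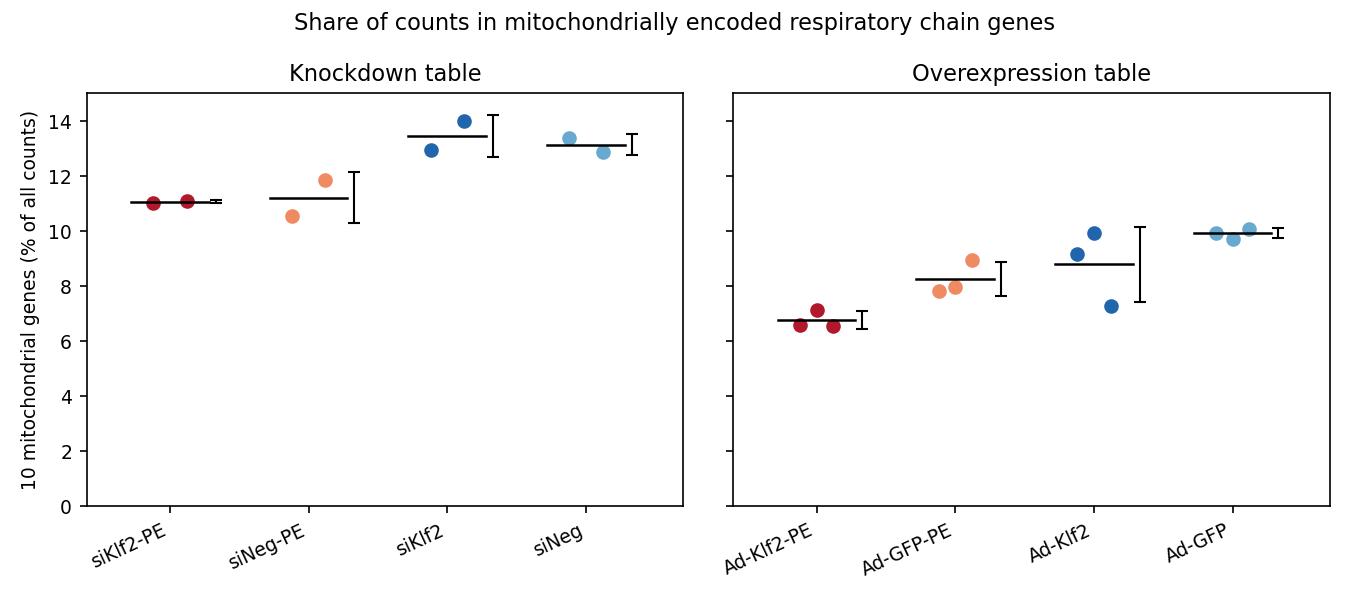
Share of all counts held by the 10 mitochondrial genes, in percent, by library (points), with the group mean (line) and SD (bar beside it), in the knockdown table (n = 2 per group) and the overexpression table (n = 3 per group). In these unscaled shares PE groups lie below the corresponding groups without PE in both tables, an order that TMM scaling keeps for the members' median in siKlf2-PE and Ad-Klf2-PE but not in siNeg-PE and Ad-GFP-PE, and the 3 Ad-Klf2-PE libraries, at 6.57% to 7.14%, lie below the 3 Ad-GFP-PE libraries, at 7.84% to 8.96%.

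Within the mitochondrial counts, cytochrome c oxidase subunits were the largest part. Complex IV genes made up 61.1% of the members' counts in siKlf2-PE, 60.7% in siNeg-PE, 61.9% in siKlf2 and 64.0% in siNeg. Complex I genes made up 27.3%, 26.3%, 26.3% and 24.5% in those groups, so siNeg had the lowest complex I part and the highest complex IV part of the knockdown table. In the overexpression table complex IV made up 61.6% in Ad-Klf2-PE, 61.1% in Ad-GFP-PE, 63.0% in Ad-Klf2 and 64.0% in Ad-GFP, and complex I 23.3%, 23.5%, 23.1% and 22.3%. These parts are not adjusted for gene length. They are independent of the scaling of the libraries, and they sum to a whole, so a smaller part of one gene raises the parts of the others.

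Mt-co1, the subunit that carries the oxygen-reducing centre of complex IV, was the largest single part. It made up 48.3% and 47.1% of the members' counts in siNeg-PE, against 51.0% and 52.3% in siNeg. It made up 43.5%, 43.8% and 42.9% in Ad-GFP-PE, against 48.1%, 48.4% and 48.4% in Ad-GFP, and the groups did not overlap in either table. Under KLF2 overexpression the part was 44.7%, 43.8% and 44.2% in Ad-Klf2-PE, against 46.3%, 46.1% and 48.4% in Ad-Klf2, again without overlap. In siKlf2-PE it was 50.48% and 50.01%, against 50.7% and 50.2% in siKlf2, ranges that overlap.

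Mt-co2, which takes electrons from cytochrome c, had the opposite course in the control arms. It made up 3.08% and 3.25% of the members' counts in siNeg-PE, against 2.62% and 2.59% in siNeg. In Ad-GFP-PE its part ranged from 5.83% to 6.05%, against 4.68% to 4.81% in Ad-GFP. In Ad-Klf2-PE it ranged from 5.45% to 5.50%, against 4.596% to 4.769% in Ad-Klf2, whereas siKlf2-PE had 2.59% and 2.72% and siKlf2 2.38% and 2.57%. The PE groups lay above their untreated counterparts in all 4 pairs, by the narrowest margin in siKlf2-PE against siKlf2.

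**Figure D2:**
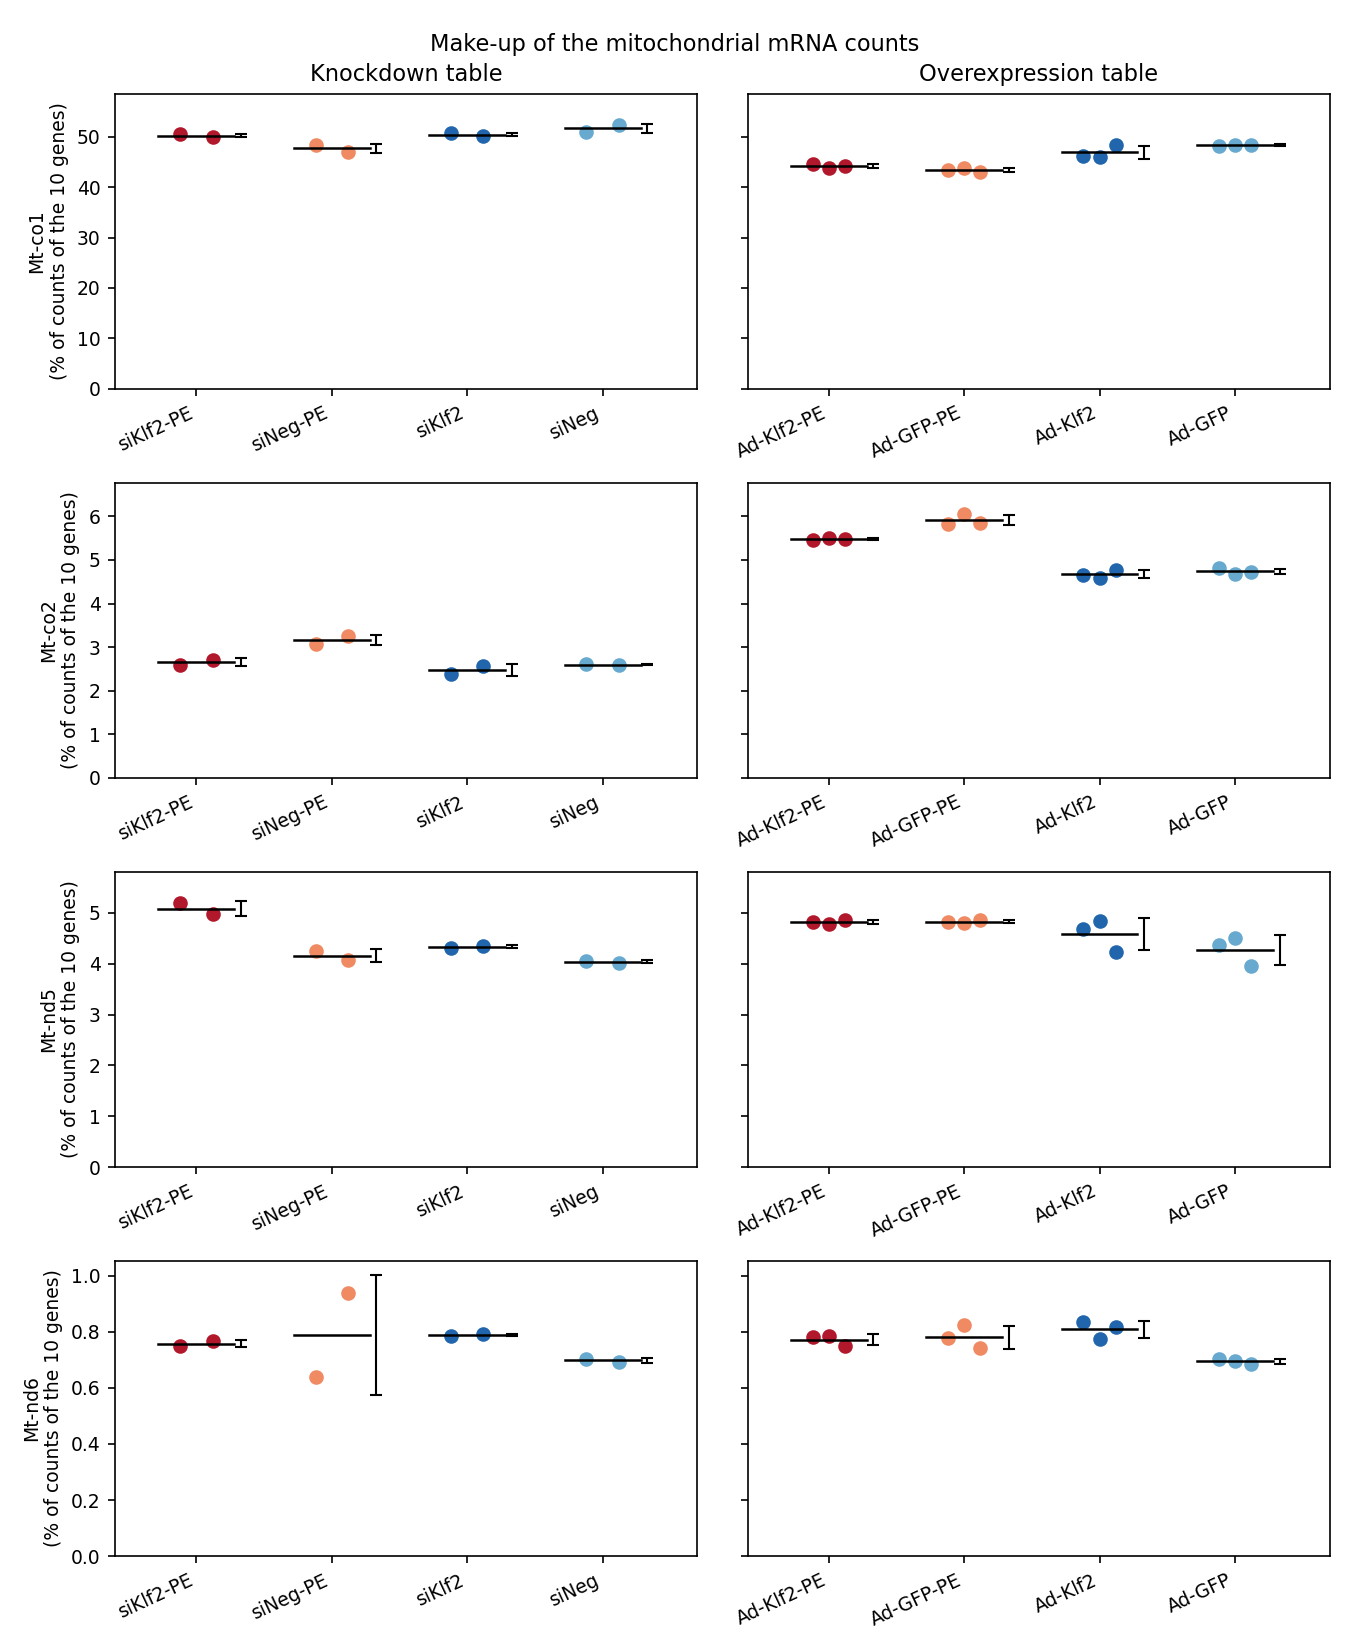
Part of the members' counts held by Mt-co1, Mt-co2, Mt-nd5 and Mt-nd6, in percent, by library (points) with the group mean (line) and SD (bar beside it), in the knockdown table (left, n = 2 per group) and the overexpression table (right, n = 3 per group). The Mt-co1 part is lower in siNeg-PE, Ad-GFP-PE and Ad-Klf2-PE than in their untreated counterparts, Mt-nd5 is highest in siKlf2-PE, and the 2 siNeg-PE libraries differ widely in Mt-nd6.

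After Klf2 knockdown in resting myocytes most mitochondrial mRNAs were higher with TMM scaling, and 2 of the 10 were with library totals alone. In siKlf2 against siNeg, 7 of the 10 members were called higher and 0 lower at an edgeR adjusted p under 0.05, beside 27.2% of the 18173 genes tested called higher and 26.8% called lower. The members' median log2 fold change was 0.28, against -0.02 over all genes. All 10 lay above 0 with TMM scaling, whereas with library totals alone 8 did, the median was 0.08, and Mt-co2 and Mt-co3 lay below 0.

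The 5 complex I genes had the largest log2 fold changes of this comparison. Mt-nd1, a core subunit beside the quinone site, measured 5099 and 5531 CPM in siKlf2, against 4234 and 3884 in siNeg, with a log2 fold change of 0.39 (standard error, SE, 0.07; edgeR adjusted p = 0.000612). Mt-nd5, a proton-pumping subunit of the membrane arm, measured 5643 and 6289 CPM in siKlf2, against 4856 and 4593 in siNeg (0.34, SE 0.06, edgeR adjusted p = 0.000515). The siKlf2 libraries lay above both siNeg libraries for each of these genes, and both calls held in all 17 alternatives, at an adjusted p of at most 0.0157 for Mt-nd1 and 0.0339 for Mt-nd5.

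The other membrane-arm subunits Mt-nd4 and Mt-nd2 were also called higher. Mt-nd4 had 12697 and 14189 CPM in siKlf2, against 11272 and 10591 in siNeg (log2 fold change 0.30, edgeR adjusted p = 0.00129). Mt-nd2 had 9635 and 11254 CPM, against 8621 and 7578 (0.37, edgeR adjusted p = 0.00879). Neither gene's groups overlapped. Mt-nd6 had 1025 and 1142 CPM in siKlf2, against 842 and 791 in siNeg, and its log2 fold change of 0.41 ± 0.17 (SE) missed the threshold (edgeR adjusted p = 0.0643), although limma (adjusted p = 0.0155), the fit of only the 2 compared groups (edgeR adjusted p = 7.06e-05) and the fit with no filter (edgeR adjusted p = 3.04e-05) called it.

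Among the remaining members, cytochrome b, the quinol-oxidising subunit of complex III, was higher by 0.25 on the log2 scale (edgeR adjusted p = 0.00449). Mt-atp6, which forms part of the proton channel of ATP synthase, had a log2 fold change of 0.25 (edgeR adjusted p = 0.0327), and Mt-co1 one of 0.20 (edgeR adjusted p = 0.012). The complex IV subunits Mt-co2, at 0.17, and Mt-co3, at 0.13, did not pass (edgeR adjusted p = 0.148 and 0.158). With library totals alone the members called were Mt-nd1 and Mt-nd5. With a 10 CPM minimum, Mt-co1 (0.12, edgeR adjusted p = 0.0818) and Mt-atp6 (0.17, edgeR adjusted p = 0.123) were not called, and DESeq2 did not call Mt-atp6 (0.27, adjusted p = 0.0898). Without siKlf2 replicate 2 the count was 4, with Mt-nd2, Mt-co1 and Mt-atp6 no longer called, and without siNeg replicate 2 it was 5, with Mt-nd2 and Mt-atp6 lost. Without siKlf2 replicate 1, Mt-co2 was at 0.30. Leaving out either siNeg-PE library added calls at nearly unchanged log2 fold changes, 0.17 for Mt-co2 and 0.41 for Mt-nd6. Those libraries lie outside the pair but enter the estimate of the spread that the 4 groups share, and their part was not tested.

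Under PE, the members differed in their response to knockdown with either scaling. In siKlf2-PE against siNeg-PE, 5 members were called higher and 0 lower, beside 26.1% of all genes called higher and 28.2% called lower, with a member median of 0.18 against -0.04 over all genes. Mt-nd5, Mt-nd4, Mt-co1, Mt-nd1 and Mt-cyb rose, whereas Mt-co2, Mt-co3 and Mt-atp6 had log2 fold changes of -0.01, -0.02 and -0.04. With library totals alone, 4 members lay above 0, Mt-nd5 was called higher at 0.27, and Mt-co2, Mt-atp6 and Mt-co3 were called lower at -0.27, -0.30 and -0.29.

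With TMM scaling, Mt-nd5 had the largest difference of any member in any of the 8 pairs, whereas with library totals alone the -0.46 of Mt-co1 in Ad-Klf2-PE against Ad-Klf2 was larger than its 0.27. It measured 6571 and 6353 CPM in siKlf2-PE, against 4237 and 4683 in siNeg-PE, a fold change of 1.45. On the log2 scale this was 0.54 ± 0.06 (SE; edgeR adjusted p = 1.46e-05), and over the 17 alternatives it ranged between 0.27 and 0.61, called in each. Its part of the members' counts was 5.19% and 4.98% in siKlf2-PE, against 4.25% and 4.08% in siNeg-PE, and the siKlf2-PE values were also above all siKlf2 and siNeg libraries.

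Mt-nd4 had 13253 and 13060 CPM in siKlf2-PE, against 9798 and 10808 in siNeg-PE (log2 fold change 0.35, edgeR adjusted p = 4e-04). Mt-co1 had 63917 and 63845 CPM, against 48209 and 54066 (0.32, edgeR adjusted p = 0.00059). Mt-nd1 had 5042 and 5309 CPM, against 3927 and 4582 (0.28, edgeR adjusted p = 0.00503). For these genes the siKlf2-PE libraries lay above both siNeg-PE libraries, and each call was lost in 1 alternative, library totals alone, with log2 fold changes of 0.09, 0.06 and 0.02.

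The call for Mt-cyb was weaker. It had 8554 and 8639 CPM in siKlf2-PE, against 6993 and 8121 in siNeg-PE (log2 fold change 0.19, edgeR adjusted p = 0.0238), and with library totals alone its log2 fold change was -0.08. It was not called without siNeg-PE replicate 1, siKlf2-PE replicate 1 or siKlf2-PE replicate 2, at log2 fold changes of 0.08, 0.21 and 0.20, nor with a 10 CPM minimum, at 0.11 (edgeR adjusted p = 0.14). Mt-nd2, at 0.09, and Mt-nd6, at 0.17, did not pass. Mt-co3 measured 10360 and 10449 CPM in siKlf2-PE, inside the 9698 and 11468 of siNeg-PE, and Mt-atp6 measured 6091 and 6333 CPM, inside 5698 and 7080.

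The 2 siNeg-PE libraries were unequal. Replicate 2 had the higher CPM of the 2 siNeg-PE libraries for each of the 10 genes, most widely for Mt-nd6. Without siNeg-PE replicate 1, siKlf2-PE against siNeg-PE called Mt-atp6 lower at -0.19 and Mt-nd6 lower at -0.16. Without siNeg-PE replicate 2, Mt-nd6 was called higher at 0.60 and Mt-nd2 higher at 0.25.

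**Figure D3:**
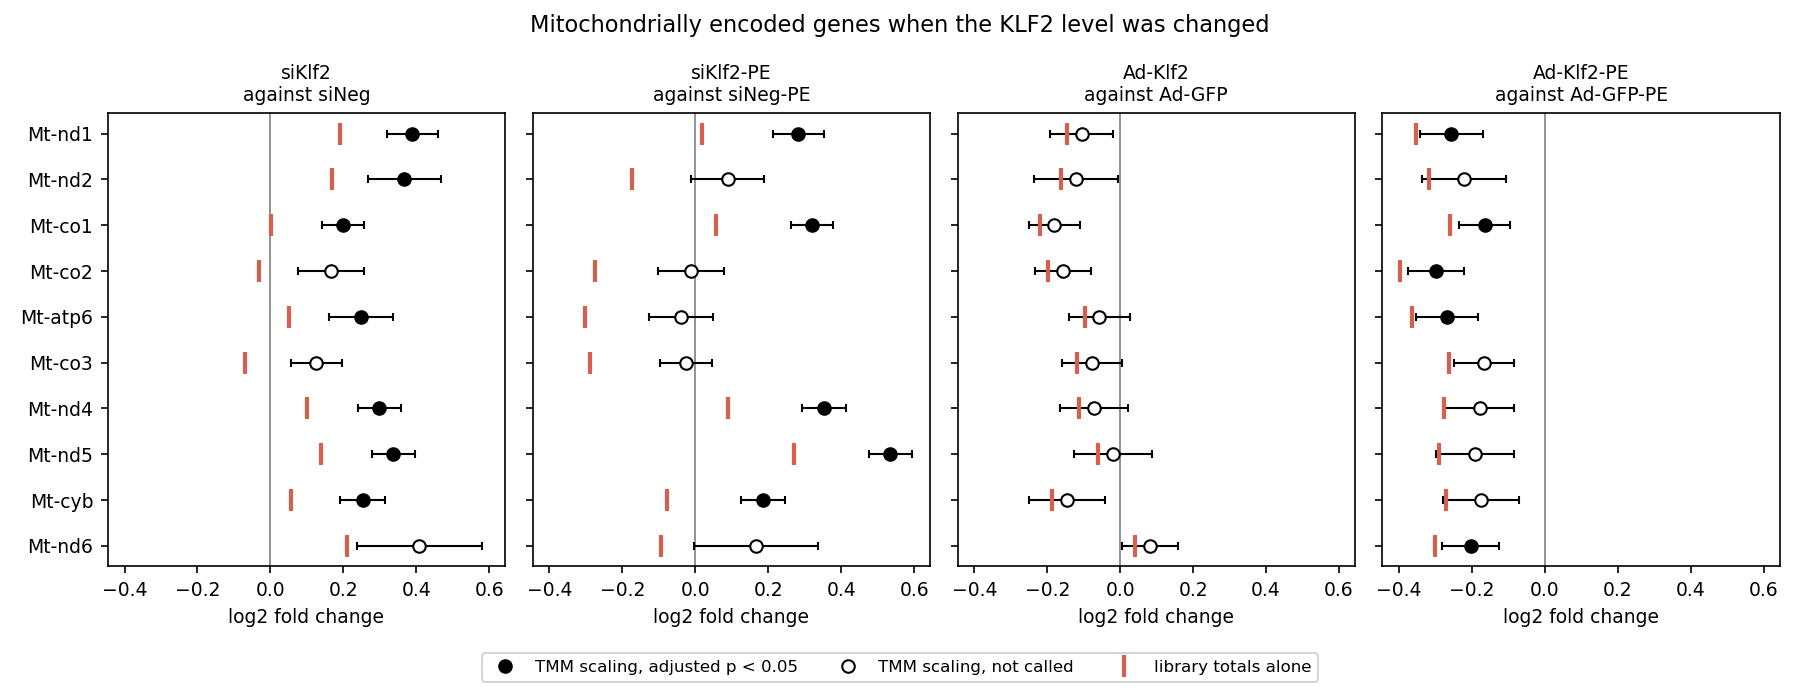
Log2 fold changes of the 10 genes when KLF2 was lowered (left pair) or raised (right pair), with TMM scaling (circles with SE bars, filled where the edgeR adjusted p was under 0.05) and with library totals alone (red ticks). Knockdown values lie to the right of 0 for most genes with TMM scaling and partly move to the left of 0 with library totals, whereas all 10 genes lie to the left of 0 in Ad-Klf2-PE against Ad-GFP-PE under both.

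Overexpression of KLF2 in resting myocytes gave small differences. In Ad-Klf2 against Ad-GFP, 0 members were called by edgeR, beside 20% of the 16153 genes tested called higher and 15.1% called lower, and 1 member, Mt-co1, had an unadjusted p under 0.05. DESeq2 called 1, also Mt-co1. The member median was -0.09, against 0 over all genes, and 9 members lay below 0, as they did with library totals alone, while 8 did with TMM factors computed without the members. The Ad-Klf2 libraries differed among themselves. Mt-co1 measured 40756, 44033 and 33379 CPM in Ad-Klf2, against 44394, 44059 and 45466 in Ad-GFP (log2 fold change -0.18 ± 0.07, SE; edgeR adjusted p = 0.0522). Replicate 3 of Ad-Klf2 had the lowest CPM of its group for all 10 members. Without it Mt-nd5 and Mt-nd6 were called higher at 0.19 and 0.24, and without Ad-Klf2 replicate 2, Mt-co1 and Mt-co2 were called lower at -0.24 and -0.22. The direction of most members was not steady. Over the 21 alternatives the highest log2 fold change lay between 0.06 and 0.24 for all members but Mt-co1 and Mt-co2. Those stayed below 0, with highest values of -0.04 and -0.006.

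Under PE, 5 of the 10 members were called lower with KLF2 overexpression. In Ad-Klf2-PE against Ad-GFP-PE, 0 members were called higher and 5 lower, beside 33.6% of all genes called higher and 32.1% called lower. The member median was -0.20, against -0.03 over all genes, and all 10 lay below 0 with TMM scaling, with size factors by relative log expression (RLE) and with library totals alone, which called all 10. Mt-co2 had 3959, 4231 and 3985 CPM in Ad-Klf2-PE, against 4656, 4900 and 5430 in Ad-GFP-PE, with no overlap. The log2 difference of -0.30 ± 0.08 (SE; edgeR adjusted p = 0.00202) was called in all 21 alternatives, where it ranged between -0.40 and -0.22.

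Mt-atp6 had 4823, 5375 and 4773 CPM in Ad-Klf2-PE, against 5624, 5848 and 6566 in Ad-GFP-PE (log2 fold change -0.27, edgeR adjusted p = 0.00942). Mt-nd1 had 2645, 2872 and 2801 CPM, against 3104, 3184 and 3657 (-0.26, edgeR adjusted p = 0.0138). Mt-nd6 had 569, 603 and 544 CPM, against 622, 667 and 687 (-0.20, edgeR adjusted p = 0.0269). For each of these genes the 3 Ad-Klf2-PE libraries lay below the 3 Ad-GFP-PE libraries. Over the 21 alternatives Mt-atp6 and Mt-nd1 were each called in 17, and Mt-nd6 in 11. Mt-co1 was lower as well, at 32430, 33637 and 32092 CPM, against 34745, 35499 and 39813, and its call was the least secure (-0.17, edgeR adjusted p = 0.045), kept in 8 of 21 alternatives.

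The 5 members not called, Mt-nd2, Mt-nd4, Mt-nd5, Mt-co3 and Mt-cyb, had log2 fold changes between -0.22 and -0.17. The count was 10 without Ad-Klf2 replicate 3, and also 10 in the fit of only the 2 compared groups. That library lies outside the pair but enters the estimate of the spread that the 4 groups share, and its part was not tested. The count was 1, Mt-co2, without Ad-GFP-PE replicate 3, Ad-Klf2-PE replicate 1 or Ad-Klf2-PE replicate 3. It was 3 without Ad-GFP replicate 1 or 2, Ad-Klf2 replicate 1 or Ad-GFP-PE replicate 2. DESeq2 also called 1.

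With PE in control cells, the 1 member called in both tables was Mt-co1. In siNeg-PE against siNeg, 0 members were called higher and 1 lower, Mt-co1, beside 24.8% of all genes called higher and 24.3% called lower. Mt-co1 measured 48209 and 54066 CPM in siNeg-PE, against 61056 and 59831 in siNeg, at -0.24 ± 0.06 on the log2 scale (SE; edgeR adjusted p = 0.00435). In Ad-GFP-PE against Ad-GFP, likewise 0 were called higher and 1 lower, Mt-co1, beside 18.3% and 16.3% of all genes. Mt-co1 measured 34745, 35499 and 39813 CPM in Ad-GFP-PE, against 44394, 44059 and 45466 in Ad-GFP (-0.28, SE 0.07, edgeR adjusted p = 0.00375). The groups did not overlap in either table, and the call held in all 17 and all 21 alternatives.

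The other 9 members had log2 fold changes between -0.10 and 0.16 in siNeg-PE against siNeg and between -0.14 and 0.19 in Ad-GFP-PE against Ad-GFP. Mt-co2 was at the upper end of both. It measured 4656, 4900 and 5430 CPM in Ad-GFP-PE, against 4436, 4260 and 4439 in Ad-GFP, without overlap, and its log2 fold change of 0.19 missed the threshold (edgeR adjusted p = 0.0624). Without Ad-Klf2 replicate 2 or replicate 3 it was called, at 0.18 each, and DESeq2 called it at 0.19. In siNeg-PE against siNeg, leaving out siNeg-PE replicate 1 brought 6 calls, of which 5 were higher, and leaving out replicate 2 brought 4, all lower. With library totals alone 9 members lay below 0 in each of these pairs, Mt-co2 being the exception in both, and the number called lower was 4 and 1.

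In siKlf2 cells the member called with PE was Mt-co3, a call that does not by itself set these cells apart from siNeg cells. In siKlf2-PE against siKlf2, 0 members were called higher and 1 lower, Mt-co3, beside 24.4% and 23.7% of all genes. Mt-co3 measured 10360 and 10449 CPM in siKlf2-PE, against 11805 and 12951 in siKlf2, at -0.25 ± 0.07 on the log2 scale (SE; edgeR adjusted p = 0.0125). Mt-co1 measured 63917 and 63845 CPM, against 66275 and 72474 (-0.12, edgeR adjusted p = 0.111). The siKlf2-PE libraries lay below both siKlf2 libraries for both genes.

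The Mt-co3 call was lost without siKlf2 replicate 2 (-0.18), siKlf2-PE replicate 1 (-0.23) or siKlf2-PE replicate 2 (-0.24), and with DESeq2 (-0.23). Mt-nd5 went the other way. DESeq2 called it higher at 0.14 (adjusted p = 0.0259), as did the fit with no filter at 0.11 (edgeR adjusted p = 0.0147). Without siKlf2 replicate 2, Mt-nd5 was at 0.20. Without siKlf2 replicate 1, Mt-nd2 and Mt-atp6 were at -0.32 and -0.30. Leaving out either siNeg-PE library, which lies outside this pair, added calls at nearly unchanged log2 fold changes, -0.22 for Mt-atp6. With library totals alone 7 members were called lower and all 10 lay below 0.

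With PE under KLF2 overexpression, the members called were Mt-co1 and Mt-nd6, a smaller part than that of all genes called lower. In Ad-Klf2-PE against Ad-Klf2, 0 members were called higher and 2 lower, beside 31.6% and 29.6% of all genes. Mt-co1 measured 32430, 33637 and 32092 CPM in Ad-Klf2-PE, against 40756, 44033 and 33379 in Ad-Klf2 (log2 fold change -0.27 ± 0.07, SE; edgeR adjusted p = 0.00268), a call that held in all 21 alternatives. The groups overlapped, as Ad-Klf2-PE replicate 2 lay above Ad-Klf2 replicate 3. Mt-nd6 measured 569, 603 and 544 CPM, against 735, 739 and 563 (-0.25, edgeR adjusted p = 0.00932), also with overlap, and was lost without Ad-Klf2 replicate 1 (-0.21) or replicate 2 (-0.20).

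This comparison depends on Ad-Klf2 replicate 3 more than on any other library. Without it 9 members were called lower, among them Mt-cyb, at -0.18 in place of 0.02 with all libraries. The count was 4 without Ad-Klf2-PE replicate 2, with library totals alone it was 8, and 8 members lay below 0 with TMM scaling against all 10 with library totals.

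**Figure D4:**
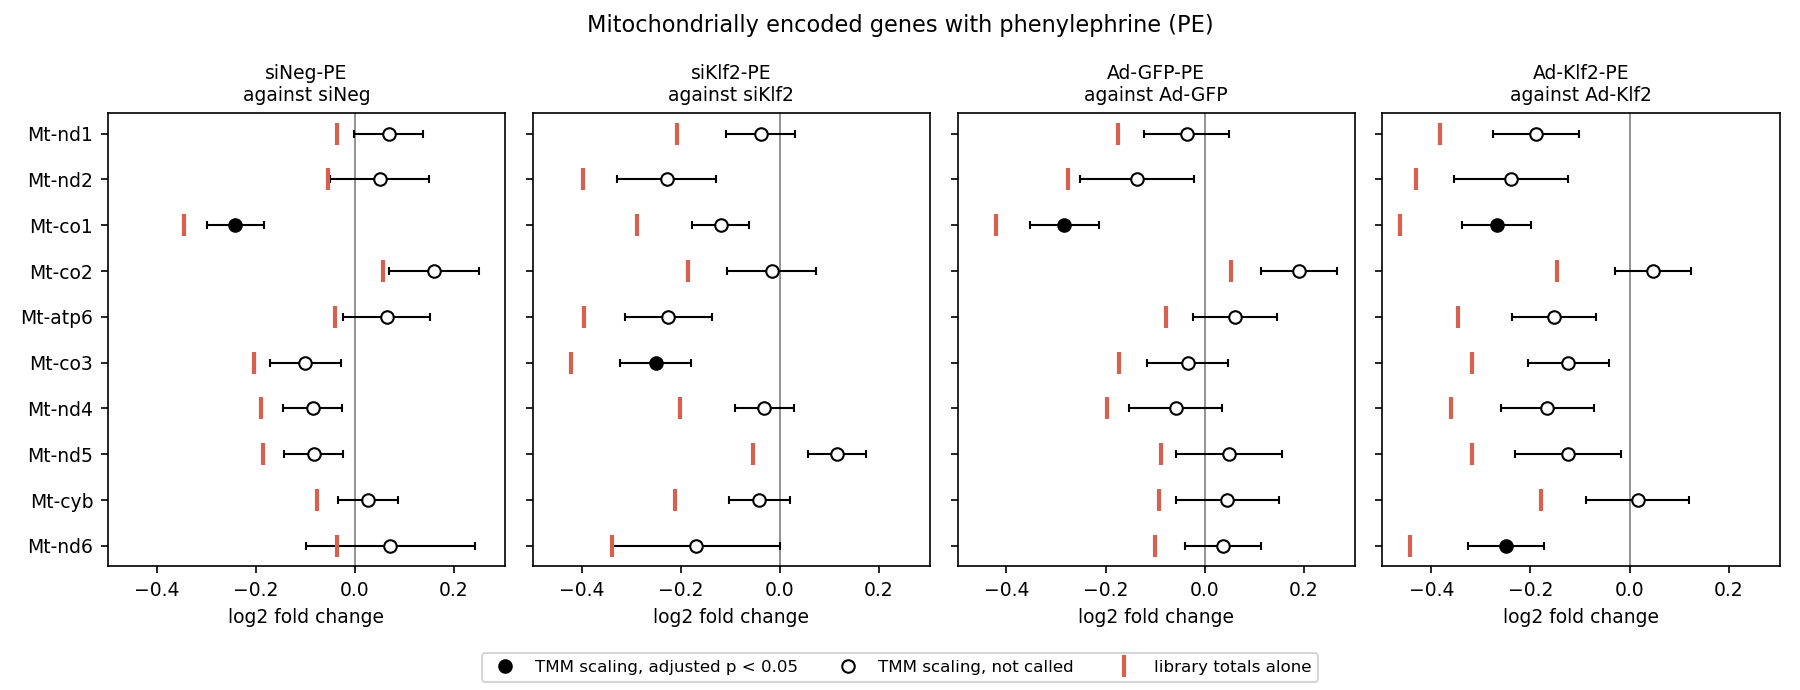
Log2 fold changes of the 10 genes with PE in siNeg, siKlf2, Ad-GFP and Ad-Klf2 cells, with TMM scaling (circles with SE bars, filled where the edgeR adjusted p was under 0.05) and with library totals alone (red ticks). Mt-co1 is the filled circle in the siNeg and Ad-GFP panels, at -0.24 and -0.28, and with library totals nearly all values lie to the left of 0.

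The pairs above share their control libraries with one another within a table, so the difference between responses was tested by the interaction of KLF2 and PE. In the knockdown table, (siKlf2-PE minus siKlf2) minus (siNeg-PE minus siNeg), 0 members were called, beside 7.08% of all genes called higher and 7.35% called lower. At an unadjusted p under 0.05 there were 2 members, Mt-atp6 with a difference of -0.29 and Mt-nd5 with 0.20, and DESeq2 called 1, Mt-nd5. The Mt-co1 responses of -0.12 in siKlf2 cells and -0.24 in siNeg cells differed by 0.12 (SE 0.08, edgeR adjusted p = 0.375), which does not separate them. Nor were the Mt-co3 responses of -0.25 and -0.10 separated (difference -0.15, SE 0.1, edgeR adjusted p = 0.377). Without siNeg-PE replicate 1 the count was 4, Mt-nd2, Mt-atp6, Mt-co3 and Mt-nd6, all lower, and without siNeg-PE replicate 2 it was 1, Mt-nd5, higher.

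In the overexpression table, (Ad-Klf2-PE minus Ad-Klf2) minus (Ad-GFP-PE minus Ad-GFP), 0 members were called higher and 1 lower, Mt-nd6, beside 25.1% and 24% of all genes. Its PE response was -0.25 in Ad-Klf2 cells and 0.04 in Ad-GFP cells, a difference of -0.29 (SE 0.11, edgeR adjusted p = 0.0373). Over 20 alternatives the difference stayed between -0.42 and -0.23, while the adjusted p ranged between 0.000107 and 0.117 and was under 0.05 in 10. The call was lost without any 1 of Ad-GFP replicates 1 and 2, Ad-GFP-PE replicates 2 and 3, Ad-Klf2 replicates 1 and 2 or Ad-Klf2-PE replicates 1 and 3, at -0.30 to -0.23, and with RLE and DESeq2, at -0.24 each. Without Ad-Klf2 replicate 3, 9 members were called lower.

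Mt-nd6 can also be set against the heavy-strand members of the same library, which removes the scaling. It had 8.41, 7.80 and 8.23 counts per 1000 heavy-strand counts in Ad-Klf2, against 7.07, 7.02 and 6.91 in Ad-GFP. The groups did not overlap, and the log2 ratio differed by 0.22 (exact permutation p = 0.1, the smallest possible, adjusted 0.4). Ad-GFP-PE also lay above Ad-GFP without overlap, by 0.17 (exact permutation p = 0.1, adjusted 0.4). Ad-Klf2-PE and Ad-GFP-PE overlapped, with a difference of -0.02, and Ad-Klf2-PE differed from Ad-Klf2 by -0.07 with overlap. Against Mt-nd5 and Mt-cyb, its neighbours on the genome, in place of all 9, Ad-GFP-PE against Ad-GFP gave -0.0069 and Ad-Klf2-PE against Ad-Klf2 gave -0.23. Against the median heavy-strand member, Ad-Klf2-PE against Ad-GFP-PE gave 0.0638, Ad-GFP-PE against Ad-GFP 0.0126 and Ad-Klf2 against Ad-GFP 0.14.

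In the knockdown table the log2 ratio was higher by 0.18 in siKlf2 than in siNeg, without overlap (exact permutation p = 0.333, the smallest possible), and it differed by -0.06 in siKlf2-PE against siKlf2, again without overlap. The siNeg-PE libraries were far apart for this gene, at 636 and 1080 CPM, so siNeg-PE against siNeg, 0.15 with both, was -0.13 without replicate 2. Without replicate 1 it was 0.43. The strand setting of the counting is not given in the sources used here, so light-strand Mt-nd6 RNA and heavy-strand RNA over the same stretch cannot be told apart.

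Among 8760 other genes that averaged 10 CPM or more and were tested in both tables, the IDs whose log2 levels ran most like the mean of the 9 heavy-strand members were ENSRNOG00000031053 and ENSRNOG00000060367. The Pearson correlations were 0.82 over the 8 knockdown libraries and 0.94 over the 12 overexpression libraries for the first ID, and 0.80 and 0.88 for the second. All points of a table share its scaling, and Ad-Klf2 replicate 3 is low in the members. ENSRNOG00000031053 averaged 1330 ± 22.3 CPM in siKlf2-PE against 1330 ± 401 in siNeg-PE, and 1520 ± 167 in siKlf2 against 1250 ± 67.3 in siNeg (SD, n = 2 each). It averaged 494 ± 23.0 CPM in Ad-Klf2-PE against 549 ± 76.8 in Ad-GFP-PE, and 555 ± 139 in Ad-Klf2 against 605 ± 40.7 in Ad-GFP (SD, n = 3 each). ENSRNOG00000060367 averaged 108 ± 3.73 CPM in siKlf2-PE against 63.5 ± 0.81 in siNeg-PE, and 103 ± 1.84 in siKlf2 against 63.1 ± 1.98 in siNeg (SD, n = 2 each). In the overexpression table it averaged 34.7 ± 2.48 CPM in Ad-Klf2-PE against 49.6 ± 5.07 in Ad-GFP-PE, and 43.8 ± 7.12 in Ad-Klf2 against 47.9 ± 3.13 in Ad-GFP (SD, n = 3 each). The files do not pair these IDs with names. Only the 10 members were left out of the candidates, so either ID may itself be a mitochondrially encoded gene, which was not checked.

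In the CUT&Tag library, the authors' peak list held 1 peak on the mitochondrial chromosome among 3065. It ran from MT 135 to 16168 in mRatBN7.2, 16034 bases, and so is not a local site at any 1 of the 10 genes. It was the widest peak of the list, the next being 3208 bases and the median 431. Its fold enrichment, the authors' own value, was 1.71, against a median of 4.48, and 7 peaks, or 0.228%, had a lower one. Its -log10 q was 745.7, which 8 peaks exceeded. The library has no replicate, and the nuclear or mitochondrial origin of its reads was not tested.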

How the data were processed

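Counts came from 2 deposited tables of raw counts per Ensembl gene ID, 1 for knockdown and 1 for overexpression. The submitters' processing notes name Trim Galore, STAR and featureCounts, with the build mRatBN7.2, as what the authors used. Versions, strand and multi-mapping settings are not given in the sources used here, so reads shared with nuclear copies of mitochondrial DNA cannot be told apart. Library construction took 400 ng of total RNA and the NEBNext Ultra kit, per the labels' protocols. Of counts from 1 to 20, 59.8% to 66.6% were even per knockdown library and 72.1% to 82.2% per overexpression library, so a count need not be 1 fragment. The deposited CUT&Tag peak list gives a score, a fold enrichment ratio and -log10 p and q values per peak from the authors.

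Each table was fitted separately over all genes and its 4 groups with edgeR 4.0.16 (R 4.3.3), using TMM factors and the quasi-likelihood test. Genes were kept by the filterByExpr rule of edgeR, with its minimum count set to 10 and its minimum total count to 15. Benjamini-Hochberg adjustment ran over 18173 and 16153 genes, and genes were called at an adjusted p under 0.05. All 10 members passed the filter. The biological coefficient of variation was 0.049 and 0.132. The procedure was tested on simulated data with changes larger than those of the members, so that test does not bear on calls of their size. Shares of counts and the Mt-nd6 ratio were compared with exact two-sided permutation tests over libraries, adjusted over 8 pairs, with 95% Wilson intervals. The members and the rule for naming them (all 10, plus the 2 IDs most alike in pattern) were chosen with earlier results of these data known. Alternatives were RLE factors, library totals alone, TMM without the members, no filter, a mean of at least 10 CPM, DESeq2 1.42.0, limma 3.58.1 (voom with quality weights), a replicate block, fits of the 2 compared groups and leaving out each library. A library left alone in its group was taken to vary like those of other groups. Gene lists, cell type markers and sequences were not used here, because 0 IDs matched a symbol in the reference. Python 3.11.15 with numpy 2.4.6, pandas 2.3.3, scipy 1.17.1 and matplotlib 3.10.9 was used for shares and figures.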

Additional observations from a re-analysis of the deposited data

Results flagged for a closer look

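The PE response of Mt-nd6 differed between Ad-Klf2 and Ad-GFP cells by -0.29 on the log2 scale, and the interaction term of the edgeR fit called the difference itself at an adjusted p of 0.0373. The response was below 0 in Ad-Klf2 cells, at -0.25, and 0.04 in Ad-GFP cells. Over 20 alternatives the adjusted p ranged between 0.000107 and 0.117 and was under 0.05 in 10. With RLE factors it was 0.0843 and with DESeq2 0.0684. Of the 3 libraries of Ad-Klf2 without PE, replicates 1 and 2 measured 735 and 739 CPM and replicate 3 measured 563 CPM, which is inside the 544 to 603 CPM of Ad-Klf2-PE. Without that library the difference was -0.42. In this interaction 25.1% of all genes were called higher and 24% lower. Of the 10 members, 9 lay below 0, so the direction is not particular to Mt-nd6.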

How the results depend on the processing

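The counts of members called changed with the processing, and the cause was not tested. For siKlf2-PE against siKlf2 the count stayed at 1 with DESeq2, which called Mt-nd5 higher in place of Mt-co3 lower. In siKlf2 against siNeg 7 were called, and 2 with library totals alone; leaving out 1 library gave 4 to 10. In siKlf2-PE against siNeg-PE leaving out 1 library gave 4 to 7, beside 5, and library totals turned Mt-cyb to -0.0777. In siNeg-PE against siNeg 1 was called, 4 with library totals, 2 with no filter, and 1 to 6 without 1 library. In siKlf2-PE against siKlf2 1 was called, 7 with library totals, 5 with no filter and in the fit of only the 2 compared groups, 3 with a 10 CPM minimum and with limma, 2 with the replicate block, and 0 to 5 without 1 library. In the knockdown interaction 0 were called, 1 with library totals and with DESeq2, 3 with no filter, and 0 to 4 without 1 library. In Ad-Klf2 against Ad-GFP 0 were called, 2 with library totals, 1 each with RLE, no filter, a 10 CPM minimum and DESeq2, and 0 to 2 without 1 library. In Ad-Klf2-PE against Ad-GFP-PE 5 were called, 3 with RLE and with TMM factors without the members, 1 with DESeq2, 9 with a 10 CPM minimum, 10 with library totals, no filter, limma or the 2 compared groups, and 1 to 10 without 1 library. In Ad-GFP-PE against Ad-GFP 1 was called, 2 with no filter, DESeq2, limma or the 2 compared groups, and 1 to 2 without 1 library. In Ad-Klf2-PE against Ad-Klf2 2 were called, 8 with library totals, no filter or limma, 6 with a 10 CPM minimum, 4 in the 2 compared groups, 3 with TMM factors without the members, and 1 to 9 without 1 library. In the overexpression interaction 1 was called, 0 with RLE and DESeq2, 2 with no filter and limma, and 0 to 9 without 1 library. Libraries of equal number in different groups were not paired: their deviations from the group means correlated at -0.0432 to 0.0403 after knockdown and -0.0203 to 0.0446 after overexpression, and the replicate block moved no other count of members by over 1.5 times. The replicate block brought the call of 1 further member, Mt-nd6 in siKlf2 against siNeg, at 0.40 (edgeR adjusted p = 0.0374), besides Mt-atp6 in siKlf2-PE against siKlf2.

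Reversals of single members when 1 library was left out concerned Mt-nd6 in both comparisons of siNeg-PE. In siKlf2-PE against siNeg-PE it ranged between -0.16 without siNeg-PE replicate 1 and 0.60 without siNeg-PE replicate 2. In siNeg-PE against siNeg it ranged between 0.41 without siNeg-PE replicate 1 and -0.36 without siNeg-PE replicate 2. Without Ad-Klf2 replicate 3, Mt-nd5 was at 0.19 in Ad-Klf2 against Ad-GFP and Mt-cyb at -0.18 in Ad-Klf2-PE against Ad-Klf2. Sign changes of values called in neither the main fit nor the alternative concerned were counted as well. They were 18 of 100 fold changes with library totals and 67 of 1000 with 1 library left out. As a percentage of the counts of all other genes, the share in siKlf2-PE against siKlf2 differed by -3.12 points.

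Against the median heavy-strand member, the Mt-nd6 log2 ratio differed by 0.15 in siKlf2 against siNeg, -0.13 in siKlf2-PE against siKlf2, 0.14 in Ad-Klf2 against Ad-GFP, 0.0638 in Ad-Klf2-PE against Ad-GFP-PE and 0.0126 in Ad-GFP-PE against Ad-GFP. Against Mt-nd5 and Mt-cyb, it differed by 0.12 in siKlf2 against siNeg, -0.19 in siKlf2-PE against siKlf2, -0.0069 in Ad-GFP-PE against Ad-GFP and -0.23 in Ad-Klf2-PE against Ad-Klf2. Depth did not limit these abundant genes, for which the spread between 2 or 3 libraries set the precision.

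Added after the data were seen, leaving out 1 library kept the direction of the Mt-co1 part of the members' counts in 7 of the 8 pairs, the exception being siKlf2-PE against siKlf2, where it differed by -0.21 points with all libraries and by -0.49 to 0.06 without 1. Also added then, among the 1266 peaks with a -log10 q of at least 10, 1 had a lower fold enrichment than the mitochondrial peak.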
